A study of Homo sapiens with 6 samples.

Results

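The genes described here encode the machinery that degrades RNA in human cells, in 4 groups: the RNA exosome, the XRN exonucleases with the decapping enzyme, the CCR4-NOT and PAN2-PAN3 deadenylases, and nonsense-mediated decay. The members were chosen by gene symbol, 43 of the 16760 genes in the table, 14 of the RNA exosome, 9 of XRN and decapping, 13 of the deadenylases and 7 of nonsense-mediated decay. All 43 were in the table, and all passed the filter on low values given below. The RNA exosome is the ring-shaped RNase complex, not the secreted vesicle that carries the same name.

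RNA was sequenced from H1975, an established human lung adenocarcinoma cell line, in 3 libraries labelled YTHDC2 knockout and 3 labelled WT. The knockout was CRISPR-based, no other treatment is labelled in either group, and whether the knockout cells were a clone or a pool is not given in the sources used here. Levels are in FPKM as the authors deposited them, so fragments are scaled to the length of the gene and the depth of the library. The study describes its RNA-seq data as biological replicates, but the labels do not say that the libraries came from separate cultures, so p-values measure only the spread between these libraries, which may be technical.

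YTHDC2, the targeted gene, encodes a helicase that binds m6A, a methyl mark on mRNA. Its transcript was at 7.82, 8.92 and 8.14 FPKM in the knockout libraries and at 13.0, 17.1 and 201 FPKM in the WT libraries. The last value belongs to WT replicate 3, which stands apart. On the log2 scale YTHDC2 differed by -2.09 (standard error 1.17, adjusted p = 0.228) over all libraries and by -0.84 (adjusted p = 0.00223) when WT replicate 3 was left out, both in limma. Mean levels were 90.1 FPKM for the epithelial keratin KRT8 and 67.0 FPKM for KRT18, while 5 of 11 lung epithelial markers in the table had a mean under 1 FPKM (EPCAM, KRT7, KRT19, MUC1 and CLDN4). The summed level of these 11 markers was 176 to 184 FPKM in the knockout libraries and 148 to 161 FPKM in the WT libraries, nearly all of it from KRT8 and KRT18, which rose by 0.24 and 0.27 on the log2 scale (adjusted p = 0.00711 and 0.00175). Of the low markers, KRT19, EPCAM, KRT7 and CLDN4 fell by 3.28, 1.41, 0.96 and 0.64 (adjusted p = 2.82e-05, 0.000679, 0.0233 and 0.0483). Of 2 blood cell markers in the table, PTPRC and CD14, both averaged below 1 FPKM, with sums of 0 to 0.139 FPKM in the knockout and 0.107 to 0.365 FPKM in the WT libraries. The 4 fibroblast markers summed to 21.0 to 22.5 FPKM in the knockout and 20.7 to 21.0 FPKM in the WT libraries. Nearly all of this came from COL3A1 and COL1A1, at means of 14.9 and 6.12 FPKM, while DCN and PDGFRB averaged below 1 FPKM. The part of these markers in the results was not tested. In bulk RNA, fewer cells of a type and less RNA per cell cannot be told apart. Depth was 27200187 to 33823371 fragments per library, and each member had 423 to 15835 fragments in each library.

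Most mRNAs are degraded after their poly(A) tail has been shortened. PAN2-PAN3 and CCR4-NOT remove the tail, the decapping enzyme then removes the cap, and XRN1 degrades the body from the 5′ end while the RNA exosome degrades from the 3′ end. Nonsense-mediated decay feeds transcripts with a premature stop codon into the same enzymes, and in the nucleus XRN2 and the exosome trim precursors and end transcription. YTHDC2 is known to bind XRN1, and readers of m6A are known for steering mRNAs towards or away from decay.

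Genes were tested with limma on log2(FPKM + 0.1), and a gene was called lower or higher in the knockout at an adjusted p under 0.05 (Benjamini-Hochberg) over 15441 genes, those with FPKM above 0 in 3 or more libraries. The added 0.1 shrinks changes of genes at very low FPKM, and the lowest mean of a member over the 6 libraries was 3.10 FPKM. Of the 43 members, 26 fell, 3 rose (CNOT3, CNOT7 and UPF1) and 14 did not pass. Among all tested genes, 26.2% were called lower and 16.6% higher, and among those with a mean of at least 1 FPKM, as all members have, 31.7% and 21.6%. In 29 members each knockout library was below each WT library, in 3 each was above, and in 11 the values overlapped, where 33.1% of all tested genes did not overlap in the lower direction and 20.7% in the higher. The median log2 fold change was -0.31 over the members and -0.09 over all tested genes. No member passed the stricter rule that also asks for an absolute log2 fold change above 1, which 1.99% of tested genes passed as lower and 0.732% as higher (2.72% together). The changes of single members were thus modest, with the largest fall to 54.4% of the WT level, in DCP1B.

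Without WT replicate 3, 18 members were called lower and 2 higher, against 21.3% and 14.8% of all tested genes. Only UPF1 was called higher when any of the 3 knockout replicates or WT replicate 2 was left out. In these fits 12.8% to 14.0% of all tested genes were called higher. GC content of the longest transcript went with the direction of change. When all genes were ordered by it and divided into 10 bins of equal size, their median log2 fold change was -0.35 in bin 1, poorest in GC, and 0.25 in bin 10, and 30 of the 43 members lay in bins 1 to 5. The members had a median GC content of 44.1%, against 49.2% over all tested genes. After a correction that subtracts a smooth curve on GC content from each library, 21 members were called lower and 2 higher, with 24.5% and 14.5% of all genes. Of the 26 that fell, 20 were also lower after this correction, and CNOT7 alone of the 3 that rose was also higher. When libraries were scaled to the same median instead, the split was 19 lower and 6 higher (16.3% and 23.5% of all tested genes), and the median of all tested genes moved from -0.09 to 0.04. With FPKM rescaled to a common total it was 28 lower and 1 higher (30.9% and 13.5% of all tested genes), with quantile normalization 20 and 3 (20.8% and 20.6%), and with limma voom on the recovered fragments 26 and 4 (27.8% and 16.9%).

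**Figure D1:**
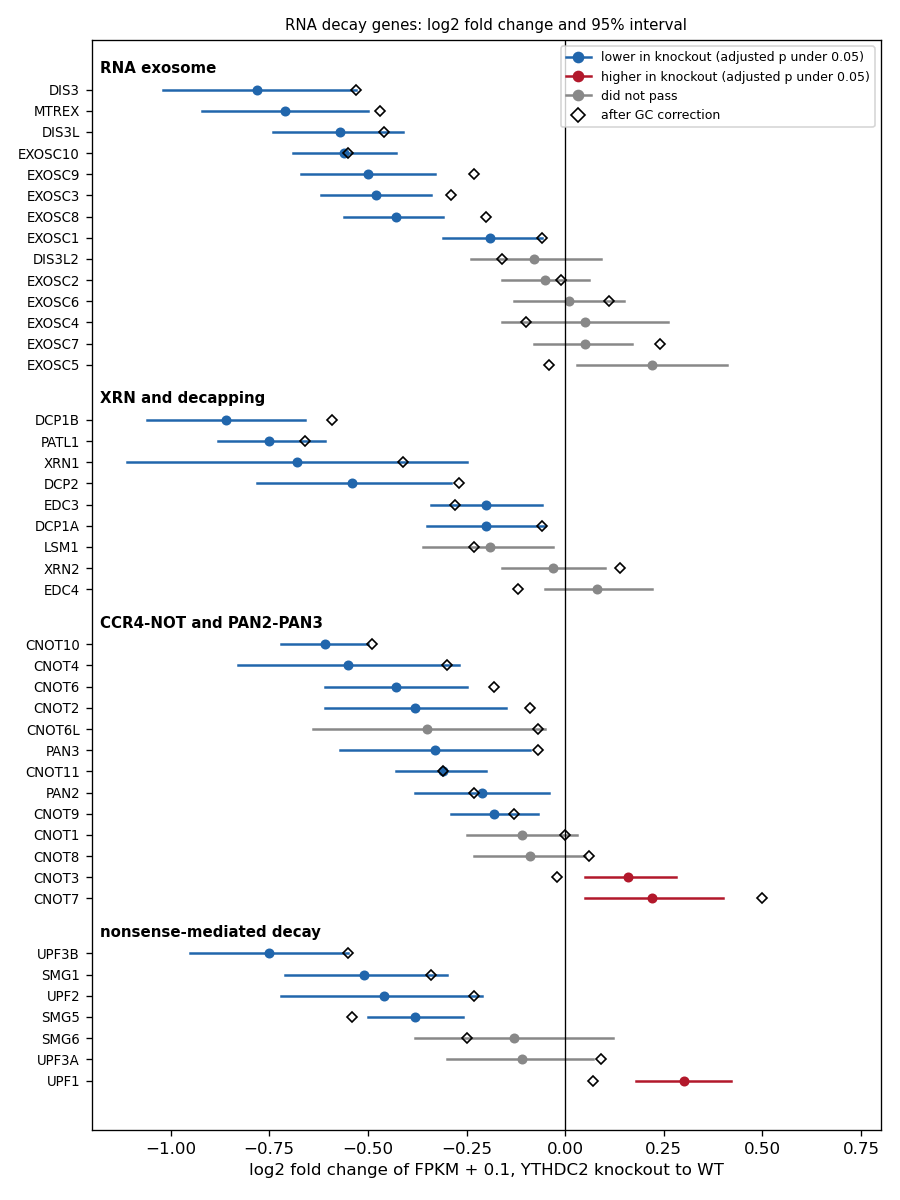
The x axis gives the log2 fold change of FPKM + 0.1 from WT to YTHDC2 knockout for each of the 43 genes, listed on the y axis by group, with its 95% interval from limma as a bar, n = 3 libraries per genotype. Blue points were called lower, red higher and grey did not pass, and open diamonds give the value after GC correction. Most points lie between -0.9 and 0 and no point reaches -1.

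A set of 14 members was called lower in the fit above and in all 18 alternative fits. In single alternative fits, 16.3% (median scaling) to 34.2% (mean of at least 1 FPKM) of all tested genes were called lower. The share of all tested genes called lower in every fit was not counted, so the 14 have no background to be judged by. The 14 members were EXOSC3, EXOSC8, EXOSC9, EXOSC10, DIS3, DIS3L and MTREX of the RNA exosome, DCP1B, DCP2 and PATL1 of decapping, CNOT10 of CCR4-NOT, and UPF3B, SMG1 and SMG5 of nonsense-mediated decay. No member was called higher in all of the fits.

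In the RNA exosome, the nucleases EXOSC10, DIS3 and DIS3L and the nuclear helicase MTREX fell in knockout cells, while DIS3L2 and 4 of the 6 ring genes did not pass the test. Of the 14 genes, 8 fell, 0 rose and 6 did not pass, with a median log2 fold change of -0.31, and 7 were called lower and 1 higher after GC correction. Among all tested genes 26.2% fell and 16.6% rose, and after GC correction 24.5% and 14.5%. The summed level of the 14 genes was 411, 409 and 407 FPKM in the knockout libraries and 472, 469 and 457 FPKM in the WT libraries.

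EXOSC10, the nuclear exonuclease also called RRP6, lies at chr1:11066618-11099881 on the minus strand (GRCh38). Its level was 26.4, 26.2 and 28.5 FPKM in the knockout libraries and 41.0, 41.3 and 37.5 FPKM in the WT libraries. The groups were far apart, and the log2 fold change was -0.56 (standard error 0.06, adjusted p = 0.000178) and -0.55 after GC correction, so that it barely moved. DIS3, the exonuclease and endonuclease at the bottom of the nuclear complex (chr13:72752169-72782096, minus strand), was at 5.34, 5.82 and 5.58 FPKM in knockout and 8.13, 10.8 and 10.1 FPKM in WT libraries. DIS3 had the largest fall of the exosome genes, with a log2 fold change of -0.78 (standard error 0.11, adjusted p = 0.000621), and -0.53 after GC correction. DIS3L, its cytoplasmic relative, was at 5.09, 4.98 and 5.04 FPKM in knockout and 7.89, 7.32 and 7.38 FPKM in WT libraries. The SD of the knockout libraries was 0.0541 FPKM (n = 3), and the log2 fold change was -0.57 (adjusted p = 0.000434).

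DIS3L2, which degrades uridylated RNA without the exosome, was at 6.13, 6.21 and 5.74 FPKM in knockout and 6.20, 6.47 and 6.42 FPKM in WT libraries. These values overlapped, and the 95% interval of its log2 fold change ran from -0.24 to 0.09. MTREX, the helicase also called MTR4 that feeds nuclear RNA into the exosome (chr5:55307760-55425581, plus strand), was at 23.9, 26.6 and 25.8 FPKM in knockout and 35.8, 47.0 and 43.0 FPKM in WT libraries. Its log2 fold change was -0.71 (standard error 0.09, adjusted p = 0.000499), or 60.6% of the WT level.

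The cap of the exosome is formed by EXOSC1, EXOSC2 and EXOSC3, which bind the incoming RNA. EXOSC3 fell, with a mean of 25.6 ± 1.39 FPKM over knockout and 35.8 ± 1.86 FPKM over WT libraries (SD, n = 3), a log2 fold change of -0.48 (adjusted p = 0.000427). EXOSC1 fell by 0.19 on the log2 scale (adjusted p = 0.0252), a call that was lost after GC correction (adjusted p = 0.435) and without WT replicate 3 (adjusted p = 0.0594). EXOSC2 was at 52.5 ± 0.389 FPKM in knockout and 54.3 ± 2.42 FPKM in WT libraries and did not pass. The cap subunits thus did not share a call under these settings.

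The ring is built from EXOSC4 to EXOSC9. Of these 6 genes, EXOSC8 and EXOSC9 fell, with log2 fold changes of -0.43 and -0.50 (adjusted p = 0.000394 and 0.00103), and -0.20 and -0.23 after GC correction. EXOSC4, EXOSC5, EXOSC6 and EXOSC7 did not pass, with log2 fold changes of 0.05, 0.22, 0.01 and 0.05. EXOSC5 had the highest WT mean of the exosome genes per length, at 69.1, 57.5 and 54.8 FPKM, which does not stand apart from EXOSC7 at 59.1 ± 0.822 FPKM (SD, n = 3), and stood at 74.1, 67.1 and 69.2 FPKM in the knockout libraries. Its interval ran from 0.03 to 0.41, its adjusted p was 0.0605, and after GC correction its log2 fold change was -0.04. EXOSC5 was called higher in 5 of the 18 alternative fits and lower in 0. EXOSC7 was called higher after GC correction, at a log2 fold change of 0.24 (adjusted p = 0.00561). The summed level of EXOSC1 to EXOSC9 was 344, 339 and 336 FPKM in knockout and 373, 356 and 352 FPKM in WT libraries.

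**Figure D2:**
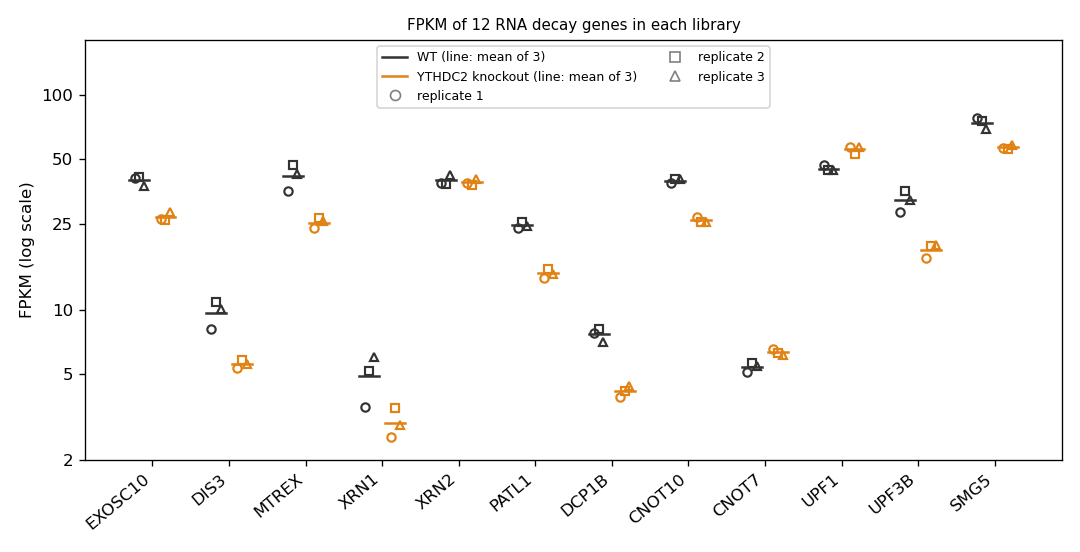
The y axis gives FPKM on a log scale for 12 of the genes, named on the x axis, with WT libraries in black and YTHDC2 knockout libraries in orange, 1 symbol shape for each replicate number and a line at the mean of 3. The knockout values of EXOSC10, DIS3, MTREX, PATL1, DCP1B, CNOT10, UPF3B and SMG5 lie below all WT values, those of UPF1 and CNOT7 above, and those of XRN2 overlap.

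Among the XRN and decapping genes, 6 of 9 fell, 0 rose and 3 did not pass, with a median log2 fold change of -0.20, and 6 were called lower after GC correction, with LSM1 in the place of DCP1A. For all tested genes the shares called lower were 26.2%, and 24.5% after GC correction. The number called lower was 3 (33.3%) without WT replicate 3 and 3 (33.3%) without knockout replicate 3, against 21.3% and 19.6% of all tested genes. DCP1B and PATL1 had the largest falls, and XRN2 and EDC4 had values that overlapped between genotypes.

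XRN1, the cytoplasmic exonuclease that degrades decapped mRNA from the 5′ end (chr3:142306607-142448062, minus strand), was at 2.55, 3.49 and 2.89 FPKM in knockout and 3.53, 5.16 and 6.03 FPKM in WT libraries. The groups barely separated, since the highest knockout library and the lowest WT library nearly touched. The log2 fold change was -0.68 (standard error 0.19, adjusted p = 0.0181), -0.41 after GC correction (adjusted p = 0.0441) and -0.52 without WT replicate 3 (adjusted p = 0.0659). The call for XRN1 was made in 13 of the 18 alternatives. XRN2, the nuclear exonuclease that acts in transcription termination, was at 38.7, 38.0 and 40.5 FPKM in knockout and 39.0, 38.3 and 42.5 FPKM in WT libraries. XRN2 was the most abundant gene of this group per length, its values overlapped, and its interval on the log2 scale ran from -0.16 to 0.10.

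DCP2, the catalytic subunit that cuts the cap, was at 6.85, 7.23 and 6.05 FPKM in knockout and 8.35, 10.5 and 10.5 FPKM in WT libraries. DCP2 fell by 0.54 on the log2 scale (adjusted p = 0.00417) and by 0.27 after GC correction (adjusted p = 0.0180). Its cofactors DCP1A and DCP1B are paralogs. DCP1B was at 3.93, 4.16 and 4.40 FPKM in knockout and 7.81, 8.13 and 7.03 FPKM in WT libraries, a log2 fold change of -0.86 (standard error 0.09, adjusted p = 0.000149) and -0.59 after GC correction. DCP1A, which is the more abundant of the paralogs per length in each library, was at 14.3 ± 0.803 FPKM in knockout and 16.5 ± 0.792 FPKM in WT libraries (SD, n = 3). DCP1A fell by 0.20 on the log2 scale (adjusted p = 0.0338), a call that was lost after GC correction (adjusted p = 0.385) and without WT replicate 3 (adjusted p = 0.103).

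PATL1, which bridges deadenylated mRNA, the LSM ring and the decapping enzyme (chr11:59636716-59668980, minus strand), had the smallest adjusted p of the 43 genes. It was at 14.1, 15.5 and 14.7 FPKM in knockout and 24.1, 25.5 and 24.6 FPKM in WT libraries, a log2 fold change of -0.75 (standard error 0.06, adjusted p = 5.00e-05) and -0.66 after GC correction. LSM1, the subunit that defines the cytoplasmic LSM ring, was at 29.8, 28.1 and 24.8 FPKM in knockout and 30.7, 33.0 and 30.7 FPKM in WT libraries. These values did not overlap, but the adjusted p was 0.0585, with an interval from -0.36 to -0.03. After GC correction LSM1 was called lower, at a log2 fold change of -0.23 (adjusted p = 0.0300). Of the enhancers of decapping, EDC3 fell by 0.20 on the log2 scale (adjusted p = 0.0250), which did not pass without WT replicate 3 (adjusted p = 0.0616). EDC4, the scaffold that joins DCP1 and DCP2, had a log2 fold change of 0.08 with an interval from -0.05 to 0.22.

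Of the 13 deadenylase genes, 8 fell, 2 rose and 3 did not pass, with a median log2 fold change of -0.31. After GC correction 5 were called lower and 1 higher. All tested genes had 26.2% lower and 16.6% higher, and 24.5% and 14.5% after the correction. The number called lower was 4 (30.8%) without WT replicate 3, 4 (30.8%) without knockout replicate 1 and 5 (38.5%) without knockout replicate 3. Shares of all tested genes in these fits were 21.3%, 20.0% and 19.6%. The genes of the CNOT10 and CNOT11 module fell, the scaffold did not pass, and the catalytic subunits did not share a direction.

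CNOT10 and CNOT11 bind each other and the N-terminal end of the scaffold. CNOT10 (chr3:32685145-32773875, plus strand) was at 27.1, 25.7 and 25.5 FPKM in knockout and 38.7, 40.4 and 40.6 FPKM in WT libraries. The groups were tight and well apart, at a log2 fold change of -0.61 (standard error 0.05, adjusted p = 6.87e-05) and -0.49 after GC correction. CNOT11 was at 33.2, 30.7 and 31.6 FPKM in knockout and 40.5, 38.8 and 39.4 FPKM in WT libraries, and fell by 0.31 on the log2 scale with and without GC correction (adjusted p = 0.00131 without and 0.000566 with it). CNOT1, the scaffold, was at 50.5, 53.6 and 49.5 FPKM in knockout and 51.5, 55.6 and 59.3 FPKM in WT libraries. The values of CNOT1 overlapped, and its interval on the log2 scale ran from -0.25 to 0.03.

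CNOT2 and CNOT3 form the module that contacts repressors and slowed ribosomes. CNOT2 fell by 0.38 on the log2 scale (adjusted p = 0.0141) and had a value of -0.09 after GC correction (adjusted p = 0.333), while CNOT3 rose by 0.16 (adjusted p = 0.0248) and was at -0.02 after it (adjusted p = 0.744). Their transcripts differ widely in GC content, at 34.1% for CNOT2 and 58.7% for CNOT3. CNOT9, which binds the GW182 proteins of microRNA silencing, fell by 0.18 (adjusted p = 0.0163), and CNOT4, a ubiquitin ligase loosely tied to the complex, by 0.55 (adjusted p = 0.00635). Without WT replicate 3 the calls of CNOT2 and CNOT9 were lost (adjusted p = 0.0520 and 0.0507), and that of CNOT4 was lost after GC correction (adjusted p = 0.0756).

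The catalytic subunits of CCR4-NOT come as a pair of paralogs for each of 2 nuclease sites. CNOT6 was at 9.10, 9.40 and 8.75 FPKM in knockout and 11.0, 12.9 and 13.0 FPKM in WT libraries, a log2 fold change of -0.43 (adjusted p = 0.00261) and -0.18 after GC correction (adjusted p = 0.0244). Its paralog CNOT6L had a log2 fold change of -0.35, with an interval from -0.64 to -0.05 and an adjusted p of 0.0568. CNOT7 was at 6.58, 6.28 and 6.16 FPKM in knockout and 5.12, 5.67 and 5.49 FPKM in WT libraries. CNOT7 thus rose, by 0.22 on the log2 scale (standard error 0.08, adjusted p = 0.0454) and by 0.50 after GC correction (adjusted p = 0.000810). The bin of genes poorest in GC had a median of -0.35 before and -0.07 after this correction. Without WT replicate 3 the log2 fold change of CNOT7 was 0.23 and did not pass (adjusted p = 0.0791). The length behind its FPKM was 11556.9 bases, where the longest annotated transcript has 6913 bases. Its GC content was taken from that transcript, so the corrected value depends on this choice. The length used was over 1.5 times the longest annotated transcript in 6 members, CNOT7, DCP1B, DIS3L, PAN3, SMG6 and UPF3A. In other members it was well below that transcript, such as EXOSC9 (1923.8 against 3882 bases), XRN2 (2201.4 against 3437) and EXOSC7 (1065.1 against 1647). The levels of all these genes, their ranks by level and the levels of ratios with them depend on the length used. CNOT8 had a log2 fold change of -0.09, with an interval from -0.23 to 0.05.

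PAN2, the nuclease that starts tail removal, and PAN3, its adaptor, fell by 0.21 and 0.33 on the log2 scale (adjusted p = 0.0454 and 0.0332). Both calls were lost without WT replicate 3 (adjusted p = 0.136 and 0.105), and that of PAN3 also after GC correction (adjusted p = 0.527).

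In nonsense-mediated decay, UPF1 rose while 4 of its partners fell. Of the 7 genes, 4 fell, 1 rose and 2 did not pass, with a median log2 fold change of -0.38, and 3 were called lower and 0 higher after GC correction. Over all tested genes 26.2% fell and 16.6% rose, and after GC correction 24.5% and 14.5%. UPF1, the RNA helicase at the centre of the pathway (chr19:18831938-18868236, plus strand), was at 57.4, 53.1 and 57.1 FPKM in knockout and 46.9, 44.6 and 44.5 FPKM in WT libraries. Each knockout library was above each WT library, at a log2 fold change of 0.30 (standard error 0.05, adjusted p = 0.00171). The GC content of its transcript was 60.5%, and after GC correction the log2 fold change was 0.07 and did not pass (adjusted p = 0.208).

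UPF3B, which links UPF1 to the exon junction complex (chrX:119805311-119852998, minus strand), was at 17.4, 19.7 and 20.0 FPKM in knockout and 28.6, 35.8 and 32.3 FPKM in WT libraries. It had the largest fall of this group, at a log2 fold change of -0.75 (standard error 0.09, adjusted p = 0.000294) and -0.55 after GC correction. Its paralog UPF3A was at 4.81, 5.04 and 5.04 FPKM in knockout and 5.16, 5.76 and 5.21 FPKM in WT libraries. The values of UPF3A did not overlap but were close, and its log2 fold change of -0.11 did not pass (interval -0.30 to 0.07). UPF2, the bridge between UPF1 and UPF3B, fell by 0.46 on the log2 scale (adjusted p = 0.00964), and the call was lost after GC correction (adjusted p = 0.0576).

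SMG1 phosphorylates UPF1, and SMG5 and SMG6 bind the phosphorylated form. SMG1, the kinase, was at 10.2 ± 0.429 FPKM in knockout and 14.7 ± 1.80 FPKM in WT libraries (SD, n = 3), without overlap, and fell by 0.51 on the log2 scale (adjusted p = 0.00239). SMG1 has near-identical copies elsewhere in the genome, among which its fragments could be split, so its value is uncertain. SMG5, which recruits decay enzymes to UPF1 (chr1:156249224-156282825, minus strand), was the most abundant of the 43 genes per length in WT cells, at 78.0, 75.3 and 69.2 FPKM, and was at 56.7, 55.9 and 58.1 FPKM in knockout libraries. SMG5 fell by 0.38 on the log2 scale (standard error 0.05, adjusted p = 0.000705), and by 0.54 after GC correction, with a GC content of 57.6% in its transcript. SMG6, the endonuclease, was at 3.65 ± 0.198 FPKM in knockout and 4.02 ± 0.537 FPKM in WT libraries (SD, n = 3), with an interval on the log2 scale from -0.38 to 0.12.

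**Figure D3:**
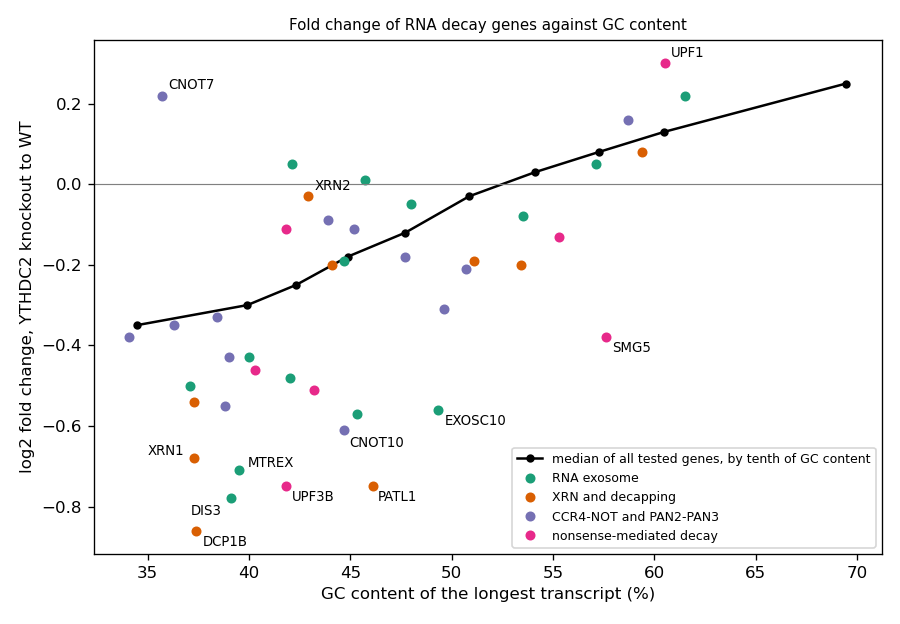
The x axis gives the GC content of the longest transcript in percent and the y axis the log2 fold change from WT to knockout, with 1 point for each of the 43 genes, coloured by group, and a black line at the median of all tested genes in each of 10 bins of GC content. The line runs from -0.35 to 0.25, CNOT7 lies above it at low GC content, and SMG5, EXOSC10 and CNOT10 lie below it.

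Across the 43 genes, GC content and log2 fold change had a Spearman correlation of 0.50 and a Pearson correlation of 0.57. Across all 15326 genes with a GC content these were 0.46 and 0.40. All points come from the same 6 libraries and genes are not independent replicates, so these are descriptions.

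Ratios within a library do not depend on library scaling, and 7 pairs of paralogs or partners were compared. The test was an exact permutation test, two-sided, in which 3 libraries against 3 cannot go below p = 0.1. DCP1A over DCP1B gave 3.59, 3.65 and 3.1 for the knockout libraries and 2.01, 2.04 and 2.45 for the WT libraries, a log2 difference of 0.67. UPF3A over UPF3B gave 0.276, 0.255 and 0.252 for the knockout libraries and 0.180, 0.161 and 0.161 for the WT libraries, a log2 difference of 0.64. CNOT7 over CNOT8 gave 0.450, 0.410 and 0.425 for the knockout libraries and 0.329, 0.374 and 0.329 for the WT libraries, a log2 difference of 0.32. In these 3 pairs the genotypes did not overlap and the exact permutation test gave p = 0.1 (adjusted p = 0.233 over 7 pairs), so the threshold could not be reached.

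XRN1 over XRN2 gave 0.0763 ± 0.0136 for the knockout libraries and 0.122 ± 0.0279 for the WT libraries (SD, n = 3), with overlap (exact permutation test, p = 0.2, adjusted p = 0.35). The pairs CNOT6 and CNOT6L, DIS3 and DIS3L, and PAN2 and PAN3 had log2 differences of -0.08, -0.21 and 0.13, each with p = 0.4 in the exact permutation test and with overlap. Paralogs can differ in GC content, and the ratio of PAN2 to PAN3 had a log2 difference of -0.17 after GC correction.

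**Figure D4:**
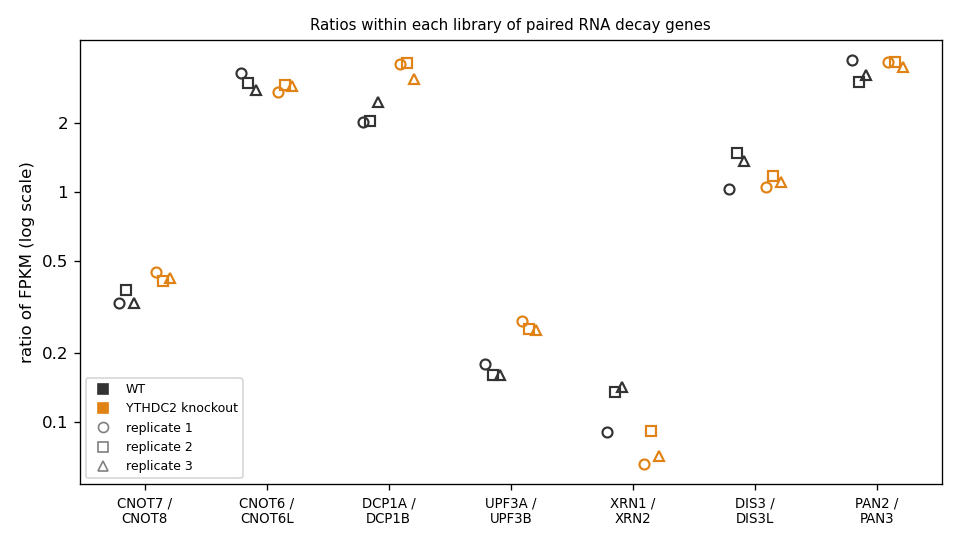
The y axis gives the ratio of FPKM within a library on a log scale for 7 pairs of genes on the x axis, with WT in black, YTHDC2 knockout in orange and 1 symbol shape for each replicate number. The knockout ratios of CNOT7 to CNOT8, DCP1A to DCP1B and UPF3A to UPF3B lie above all WT ratios, and those of the other pairs overlap.

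The promoters of the members were searched for short motifs, as 300-base windows from 250 bases before to 50 bases after the RefSeq start (GRCh38.p14). Windows were found for 38 of the 43 members, among 27305 windows in all, and both strands were searched. The study turns on interferon-stimulated genes, so their response element was included. Its letters, GAAA followed by any 2 bases and GAAA again, were in 2 of 38 member windows (5.3%), in 2.9% of the windows of tested genes and in 3.6% of all windows. These 2 windows, of EXOSC3 and UPF2, are shown with that of PATL1, the member with the smallest adjusted p, as the 250 bases before the start, 5′ to 3′ on the strand of the gene. Capitals mark letters of a searched motif. The stretches are chr9:37785093-37785342 (minus strand) for EXOSC3, chr10:12043171-12043420 (minus strand) for UPF2 and chr11:59669038-59669287 (minus strand) for PATL1, and none holds an annotated exon.
EXOSC3: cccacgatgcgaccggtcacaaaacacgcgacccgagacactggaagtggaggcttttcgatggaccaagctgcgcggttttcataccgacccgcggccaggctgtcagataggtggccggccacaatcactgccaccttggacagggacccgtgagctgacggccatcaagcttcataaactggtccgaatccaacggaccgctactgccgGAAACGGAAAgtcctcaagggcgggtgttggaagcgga
UPF2: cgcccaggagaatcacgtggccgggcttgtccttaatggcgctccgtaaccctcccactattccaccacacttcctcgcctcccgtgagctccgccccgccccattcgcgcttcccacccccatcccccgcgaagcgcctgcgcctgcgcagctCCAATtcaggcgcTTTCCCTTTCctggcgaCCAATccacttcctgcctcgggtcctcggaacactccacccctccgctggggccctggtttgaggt
PATL1: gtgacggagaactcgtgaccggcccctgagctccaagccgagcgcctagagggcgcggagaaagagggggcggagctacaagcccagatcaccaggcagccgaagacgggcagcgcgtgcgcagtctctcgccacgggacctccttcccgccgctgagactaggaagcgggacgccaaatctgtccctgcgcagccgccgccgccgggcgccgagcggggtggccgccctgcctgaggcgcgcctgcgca
In EXOSC3 the element lies at bases -38 to -29 from the start. In UPF2 it lies on the other strand at bases -83 to -74, between CCAAT boxes at -96 to -92 and -66 to -62. PATL1 holds none of the searched letters in these bases.

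The CCAAT box (CCAAT) was in 42.1% of member windows, 36.3% of the windows of tested genes and 35.7% of all windows. The ETS motif CCGGAAGT was in 7.9%, 7.7% and 4.4% of these windows, the YY1 motif AAGATGGC in 10.5%, 4.7% and 3.0%,  and the NRF1 core CGCATGCG in 2.6%, 3.4% and 2.2%. In the stretches shown, no match overlapped another. A match describes these letters only, and nothing was measured on binding. The TATA box (TATAAA) was in 2.6% of member windows and 6.6% of the windows of tested genes. Of the 38 members, 4 share their start region with a gene read the other way within 1000 bases. MTREX and DHX29 start 295 bases apart, and DHX29, a helicase of translation initiation, also fell, at a log2 fold change of -0.53 (adjusted p = 0.023). DIS3 and PIBF1 start 233 bases apart, and PIBF1 did not pass (log2 fold change -0.28, adjusted p = 0.196). EXOSC5 and BCKDHA start 459 bases apart, and BCKDHA rose (log2 fold change 0.41, adjusted p = 0.00164). EXOSC7 and ZDHHC3 start 70 bases apart, and ZDHHC3 did not pass (log2 fold change 0.03, adjusted p = 0.771).

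Sequence that YTHDC2 could read was described by the letters GGACT, a common form of the m6A motif, in the longest transcript. The median was 0.83 sites per kb over the 43 members, 0.74 over the 26 that fell, 0.94 over the 17 others and 0.94 over all tested genes. Of the 26 members that fell 4 had none, of the 17 others 0, and of 15325 tested genes 1040. No m6A measurement was used here, and a match is not a modified site.

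The other genes of these pathways, 73 in all, were counted in the same fit. Of these, 39 fell, 5 rose and 29 did not pass, with a median log2 fold change of -0.26, and after GC correction 29 were lower and 8 higher. They were chosen for their known roles with earlier results of these data in view. Among all tested genes 26.2% fell and 16.6% rose, and after GC correction 24.5% and 14.5%.

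Of 14 cofactors of the RNA exosome, 7 fell and 1 rose, against 26.2% and 16.6% of all tested genes. Most of the 7 lower calls were lost after GC correction. ZCCHC8, of the complex that targets nuclear RNA with MTREX, fell from 12.4 ± 0.696 to 6.99 ± 0.119 FPKM (SD, n = 3), a log2 fold change of -0.81 (adjusted p = 7.35e-05). ZC3H18 and HBS1L, which tie the exosome to the cap-binding complex and to stalled ribosomes, fell by 0.50 and 0.36 on the log2 scale. After GC correction ZC3H18 was at -0.68 and still called, and HBS1L was at -0.10 and did not pass. SKIV2L, the cytoplasmic helicase that feeds mRNA to the exosome, rose from 17.1 ± 0.689 to 25.6 ± 1.07 FPKM (SD, n = 3), a log2 fold change of 0.58 (adjusted p = 0.000146) and 0.41 after GC correction. The nuclear helicase MTREX and its cytoplasmic relative SKIV2L were thus called in opposite directions.

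Of 19 other decapping and 5′ to 3′ decay genes, 8 fell and 2 rose, against 26.2% and 16.6% of all tested genes. Their median log2 fold change was -0.01, with 10 of the 19 below 0, where all tested genes had a median of -0.09. LSM3, of the LSM rings, fell by 0.58, NKRF, a partner of XRN2, by 0.51 and LSM14A, of P-bodies, by 0.38 on the log2 scale. After GC correction LSM14A was at -0.12 and did not pass. PNRC1, an activator of nuclear decapping, and LSM2 rose by 0.30 and 0.27. LSM2 and LSM3, which sit in the same ring, were thus called in opposite directions.

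Of 25 other deadenylases and adaptors, 13 fell and 2 rose, against 26.2% and 16.6% of all tested genes. TNRC6A, the GW182 protein that recruits CCR4-NOT in microRNA silencing, fell from 13.8 ± 0.686 to 5.88 ± 0.154 FPKM (SD, n = 3), a log2 fold change of -1.21 (adjusted p = 1.67e-05), past the stricter rule. ANGEL2, of the CCR4 nuclease family, and BTG2, an adaptor of CCR4-NOT, fell by 0.57 and 0.43, and PABPC1, the poly(A)-binding protein, and TNKS1BP1, a partner of CCR4-NOT, rose by 0.21 and 0.24. PABPC1 was the more abundant, at 486 ± 9.22 FPKM in knockout and 419 ± 13.9 FPKM in WT libraries (SD, n = 3). After GC correction TNKS1BP1 had a log2 fold change of -0.01 and did not pass.

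Of 15 other nonsense-mediated decay genes, 11 fell and 0 rose, against 26.2% and 16.6% of all tested genes. The exon junction paralogs MAGOHB and MAGOH fell by 1.01 and 0.64 on the log2 scale (adjusted p = 4.35e-05 and 9.00e-05), and by 0.72 and 0.52 after GC correction. MAGOHB also passed the stricter rule.

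**Figure D5:**
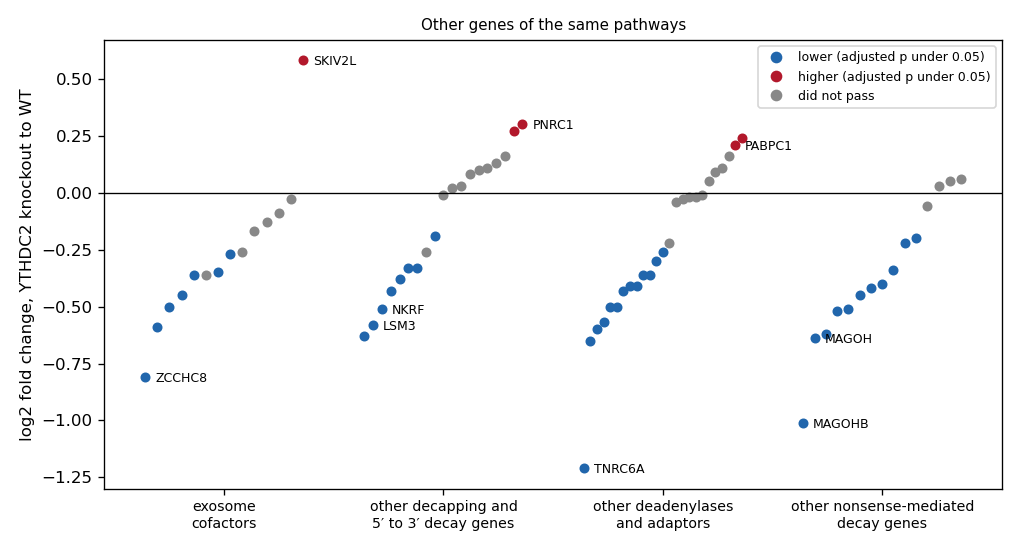
The y axis gives the log2 fold change from WT to knockout for the 73 other genes of these pathways, ordered by value within each of 4 lists on the x axis, in blue where called lower, in red where called higher and in grey otherwise. TNRC6A at -1.21 and MAGOHB at -1.01 are the lowest points and SKIV2L at 0.58 is the highest.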

How the data were processed

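RNA-seq was analysed from 3 YTHDC2 knockout and 3 WT libraries of H1975 cells, grouped by the genotype in the labels. The authors deposited 1 table of FPKM values of 16760 genes, made with GRCh38.p13 as the genome build per the submitters' processing notes. Not given in the sources used here are the aligner, counting program, annotation, strand setting and filters, so reads of a gene and its antisense partner cannot be told apart.

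Trend and robust moderation were used in limma 3.58.1 (R 4.3.3), fitted without a replicate block on log2(FPKM + 0.1) for 15441 genes above 0 FPKM in at least 3 of 6 libraries, and p-values were adjusted over all of these by Benjamini-Hochberg. The stricter rule uses the thresholds that the paper states for its RNA-seq. Whole fragments were recovered from the FPKM steps for 16760 genes, within 0.02 of a whole number, and give the depth. GC content and positions came from GENCODE 29, which matched 99.1% of genes and all 43 members. The GC correction subtracted a lowess curve (span 0.3) from each library. Scripts were tested on simulated data, in Python 3.11.15 with numpy 2.4.6, pandas 2.3.3, scipy 1.17.1 and matplotlib 3.10.9.

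The text names all 43 members, YTHDC2 and, in each of the other lists, up to 3 called genes in each direction with the smallest adjusted p; neighbours at shared start regions and cell type markers were named beyond that rule. The values of 1 gene within the rule are not reported here. The members and lists were chosen with earlier results of these data known.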

Additional observations from a re-analysis of the deposited data

How the results depend on the processing

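The count of members called lower was 18 to 28 under all alternatives, where 16.3% to 34.2% of all tested genes were called lower. No member passed the stricter rule under any alternative. Leaving out each library in turn gave 18 to 27 lower and 1 to 4 higher. Of all tested genes, 19.6% to 28.8% were lower and 12.8% to 18.0% higher in these fits. The count of members called higher was 6 with median scaling and 1 with FPKM rescaled to a common total. It was 2 with the GC correction, 4 with limma voom on fragments and 3 with quantile normalization, where 21, 26 and 20 were lower. Of the members called in either direction 89.7% were lower, against 61.2% of all genes called in either direction. With median scaling these shares of called genes were 76.0% and 41.0%. Pseudocounts of 0.01 and 1 left the counts at 26 and 3. Without trend and robust moderation 21 were lower, 3 of them of XRN and decapping, against 23.6% of all tested genes.

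The sign of some small log2 fold changes turned, none of a call made at the main settings except CNOT3; the cause was not tested. With median scaling EXOSC2 was at 0.08, DIS3L2 at 0.05, XRN2 at 0.10, CNOT1 at 0.02, CNOT8 at 0.04, UPF3A at 0.02 and SMG6 at 0.00. With quantile normalization DIS3L2 was at 0.04, UPF3A at 0.02 and SMG6 at 0.00. With a common total EXOSC4 was at -0.01, EXOSC6 at -0.05 and EXOSC7 at -0.02. With the GC correction, alone or with the replicate block, EXOSC4 was at -0.10, EXOSC5 at -0.04, XRN2 at 0.14, EDC4 at -0.12, CNOT3 at -0.02, CNOT8 at 0.06 and UPF3A at 0.09, and without the block the log2 difference of PAN2 to PAN3 was -0.17. With each library left out in turn, EXOSC4 ranged from -0.03 to 0.16 and XRN2 from -0.06 to 0.02, their turned signs being without WT replicate 3, and EXOSC6 was at -0.02 without knockout replicate 3.

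Pairing of the samples by replicate number was neither shown nor excluded. Same-numbered libraries had correlations of deviations from their genotype means of 0.212, 0.125 and -0.058 over 11121 genes, and not every library correlated best with its own number. Deviations of 3 libraries from their own mean sum to 0, so these correlations constrain each other and cannot exclude pairing. With the replicate block 27 members were lower and 3 higher (27.4% and 17.1% of all tested genes), and with the block and GC correction 20 and 3 (23.9% and 13.8%). Depth was 423 fragments or more for each member in each library. How far counting noise and the spread between libraries, with 3 per genotype, each limit the smallest changes was not tested.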
